A study of Rattus norvegicus with 3 samples.

Results

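The 9 genes described here make, sense and block interleukin-1 (IL-1) in the injured rat spinal cord. They are the ligands Il1b (ENSRNOG00000004649) and Il1a (ENSRNOG00000004575), the receptor antagonist Il1rn (ENSRNOG00000005871) and the signalling receptor Il1r1 (ENSRNOG00000014504). The others are the co-receptor Il1rap (ENSRNOG00000001928), the decoy receptor Il1r2 (ENSRNOG00000014378), the related ligand Il18 (ENSRNOG00000009848), the inflammasome sensor Nlrp3 (ENSRNOG00000003170) and the protease Casp1 (ENSRNOG00000007372). They were chosen by symbol as the IL-1 core of the family, and all 9 were found among the 25199 features of the deposited tables. The tissue came from wild-type rats aged 6 to 8 weeks, 5 animals per condition, that received MPG-HD, G-HD or PBS by injection at the lesion. A 5-mm piece of cord around the lesion was digested with collagenase at 1 mg/ml for 30 min at 37 °C and with 0.25% trypsin for 5 min, passed through a 30-µm strainer and cleared of red cells. By its title the series concerns a hydrogel depot meant for repair of severe injury, and PBS served here as the control. The labels used here give neither the composition of the gels nor the time of collection. They also do not say how animals were pooled, and each condition has 1 library, so the 3 libraries can be compared with one another but no difference between conditions can be tested.

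IL-1β, the product of Il1b, is made as an inactive precursor after danger signals reach a myeloid cell, and caspase-1, activated on the NLRP3 inflammasome, cuts it and the IL-18 precursor into their active forms. IL-1α and IL-1β signal through a pair made of IL1R1 and the accessory protein IL1RAP, which recruits MyD88 and switches on NF-κB. The signal is blocked at 2 points: the antagonist encoded by Il1rn occupies IL1R1 without signalling, and IL1R2 binds the ligand but lacks the signalling domain. In the injured cord, microglia and blood-borne myeloid cells are known sources of IL-1, and endothelial cells are known responders. The counts below are of messenger RNA and say nothing of precursor cutting or secretion.

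Promoters are shown for genes at both ends of the signal: Il1b and Nlrp3, which were high in the same phagocytes, Il1a, the second ligand, and Il1r1, which was counted mainly in endothelial-like cells. Each runs from 250 bases before to 50 bases after the annotated start, on the strand of the gene, in RefSeq GRCr8, which need not be the build behind the counts. Il1b lies at chr3:137036532-137036831 on the minus strand, Il1a at chr3:136989968-136990267 on the minus strand, Nlrp3 at chr10:44827848-44828147 on the plus strand and Il1r1 at chr9:50034133-50034432 on the plus strand. Capitals mark TATAAA (the TATA box) and GAGGAAG (a core bound by the myeloid factor PU.1), searched on both strands, so that TATAAA on the other strand reads TTTATA.
Il1b: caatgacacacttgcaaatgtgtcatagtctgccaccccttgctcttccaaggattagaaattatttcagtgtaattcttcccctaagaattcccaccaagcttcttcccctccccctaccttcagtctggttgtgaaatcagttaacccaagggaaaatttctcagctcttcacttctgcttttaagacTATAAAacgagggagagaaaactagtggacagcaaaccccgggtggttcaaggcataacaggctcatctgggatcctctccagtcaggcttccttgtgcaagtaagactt
Il1a: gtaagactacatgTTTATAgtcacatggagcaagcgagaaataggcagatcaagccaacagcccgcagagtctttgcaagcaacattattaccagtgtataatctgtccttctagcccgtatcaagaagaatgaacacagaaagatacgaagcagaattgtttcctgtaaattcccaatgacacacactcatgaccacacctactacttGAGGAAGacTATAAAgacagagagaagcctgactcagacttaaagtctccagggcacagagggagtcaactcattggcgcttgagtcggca
Nlrp3: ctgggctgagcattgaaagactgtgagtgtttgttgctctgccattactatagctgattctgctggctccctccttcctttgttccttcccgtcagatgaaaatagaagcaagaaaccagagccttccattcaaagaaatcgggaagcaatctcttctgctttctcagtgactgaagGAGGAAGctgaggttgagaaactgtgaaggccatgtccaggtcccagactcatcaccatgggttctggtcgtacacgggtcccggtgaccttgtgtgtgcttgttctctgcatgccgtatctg
Il1r1: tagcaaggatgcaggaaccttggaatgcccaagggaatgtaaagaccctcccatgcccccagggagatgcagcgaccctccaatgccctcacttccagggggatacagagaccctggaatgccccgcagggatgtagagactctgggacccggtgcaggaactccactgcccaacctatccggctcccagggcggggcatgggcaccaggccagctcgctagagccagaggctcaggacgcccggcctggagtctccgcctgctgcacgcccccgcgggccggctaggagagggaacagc
TATAAA lay 60 bases before the start in Il1b and 32 bases before it in Il1a, which also held the reverse match 237 bases before the start and GAGGAAG 41 bases before it. Nlrp3 held GAGGAAG 73 bases before the start, and Il1r1 held neither motif. The GC content was 45.3% in Il1b, 44.3% in Il1a, 49.7% in Nlrp3 and 65.3% in Il1r1, against a median of 51.7% over 33469 rat promoters. TATAAA was present in 14.2% and GAGGAAG in 12.4% of those promoters, so a match in a single promoter is a description only. RefSeq promoters were matched for 8 of the 9 genes, with Il1r2 the exception.

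The libraries held 2339, 2619 and 1513 barcodes for MPG-HD, G-HD and PBS, and 2087, 2342 and 1374 cells were kept, with 23537245, 25741215 and 15835089 unique molecular identifiers (UMIs). Between 4 and 7 cell barcodes were shared by any pair of libraries. Cells were clustered without the 9 genes or the pathway genes, so that no class was drawn from them, and classes were named from marker sets. All 8 microglia markers and all 10 macrophage markers were counted in the cells named for them in each library, all 7 measured endothelial markers in the endothelial-like cells, and all neutrophil markers but Ltf (11 listed) in the neutrophil-like cells. These are the markers that named the classes, so this is no separate support for the names. All 8 microglia markers were also counted in the macrophage-like cells of each library. Microglia-like cells numbered 390, 298 and 267 for MPG-HD, G-HD and PBS, and macrophage-like cells 460, 703 and 342. Neutrophil-like cells numbered 31, 133 and 26, and endothelial-like cells 32, 41 and 37. Levels are given as CPM, the UMIs of a gene scaled to 1000000 UMIs of the same cells in the same library. Intervals are exact 95% counting intervals. They cover the count of UMIs and not the spread between animals, and more cells of a state within a class cannot be told apart from more RNA per cell.

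Over all libraries the genes that send and block the signal were counted mostly in the same myeloid classes, and those that receive it elsewhere. Il1b (38138 UMIs), Il1a (150), Il18 (5291) and Nlrp3 (2307) were counted in microglia-like, macrophage-like and, for Il1b and Nlrp3, neutrophil-like cells. Il1rn (969 UMIs) and Il1r2 (880) had their highest levels in neutrophil-like cells. Il1r1 (90 UMIs) was counted mostly in endothelial-like and fibroblast-like cells, and Il1rap (355 UMIs) mostly in oligodendrocyte-like and Schwann-like cells. Casp1 (2349 UMIs) was the most widely shared, with its highest level among the named classes in T-like cells.

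**Figure D1:**
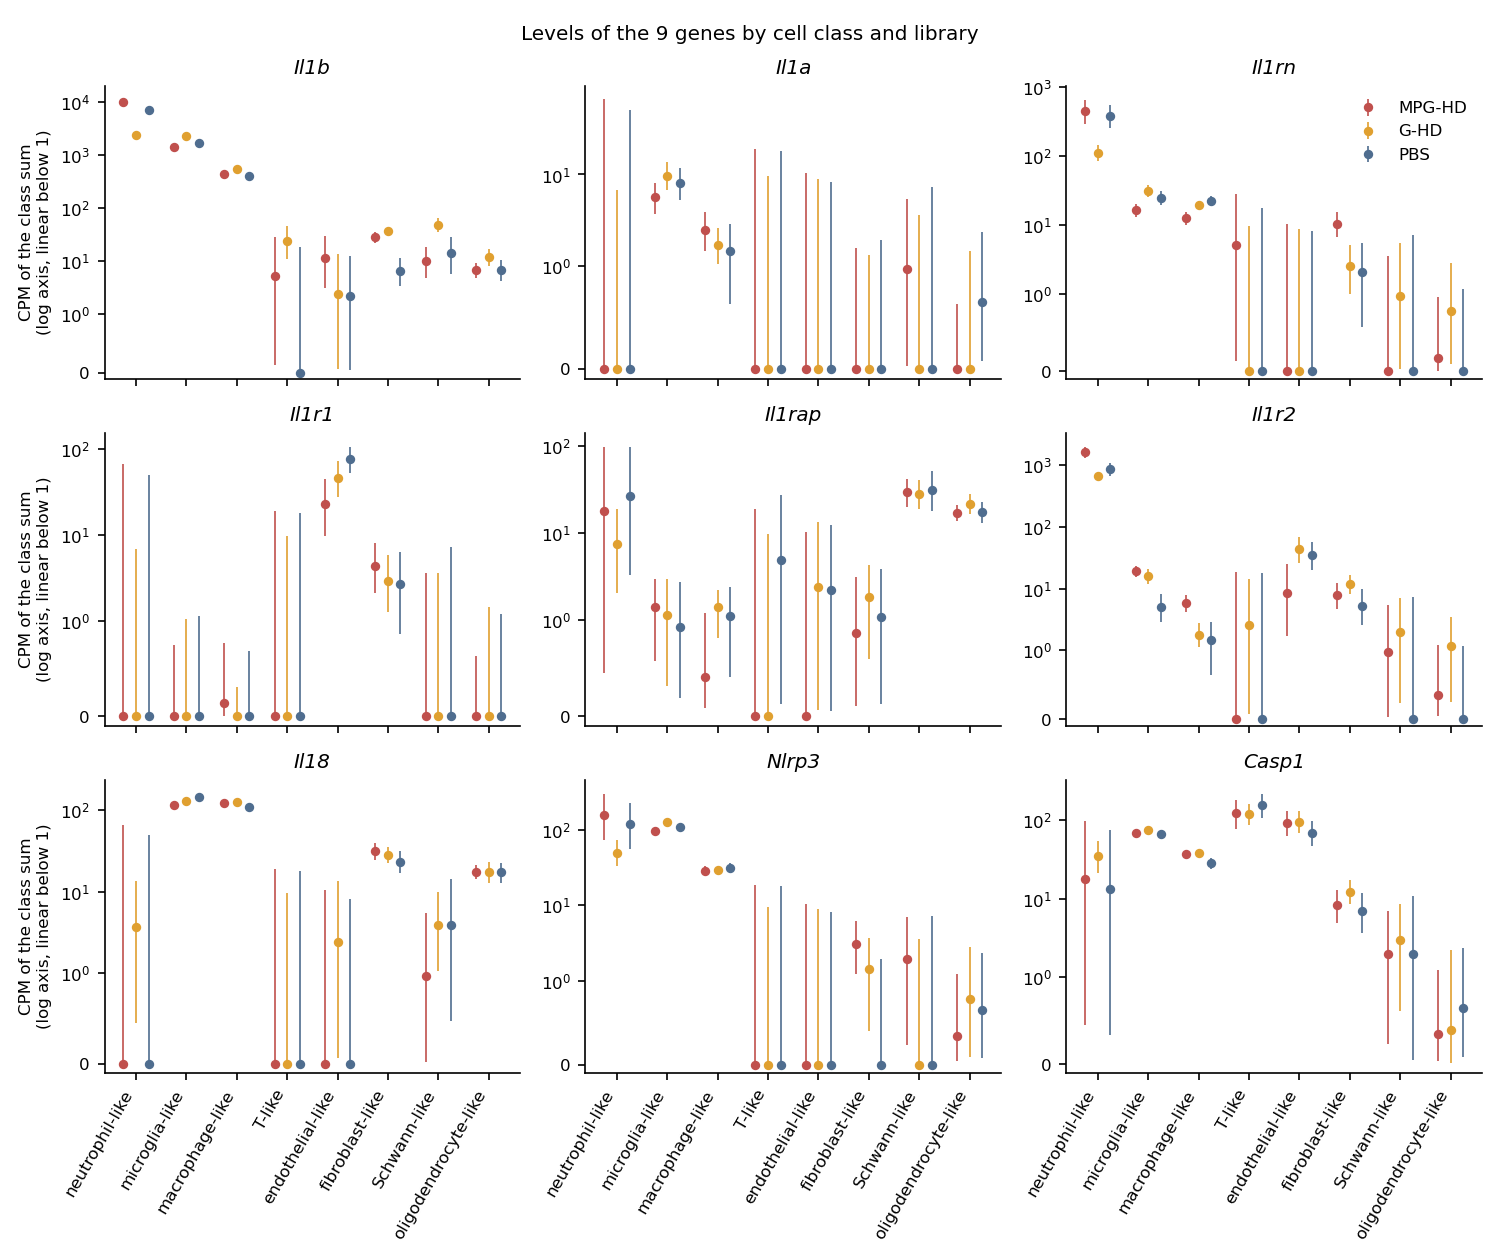
Level of each of the 9 genes (CPM, log axis that is linear below 1) in 8 cell classes of the MPG-HD, G-HD and PBS libraries, with exact 95% Poisson intervals that cover counting error only. Il1b is high in neutrophil-like, microglia-like and macrophage-like cells of all 3 libraries, Il1r1 stands out in endothelial-like cells, and Il1rap in Schwann-like and oligodendrocyte-like cells.

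Among the named classes Il1b was highest in neutrophil-like cells, at 10039 CPM in MPG-HD (566 UMIs), 2387 CPM in G-HD (1285 UMIs) and 6837 CPM in PBS (507 UMIs). Microglia-like cells followed with 1411 CPM in MPG-HD, 2208 CPM in G-HD and 1651 CPM in PBS, resting on 6993, 7725 and 5327 UMIs. Macrophage-like cells held 438 CPM in MPG-HD, 537 CPM in G-HD and 392 CPM in PBS, resting on 3194, 6560 and 2131 UMIs. Neutrophil-like, microglia-like and macrophage-like cells kept this order in each library (the unnamed cluster 19 lay between the first pair in MPG-HD and PBS), with intervals that did not overlap in MPG-HD and PBS, and in G-HD the neutrophil-like interval (2258 to 2521) lay just above the microglia-like one (2159 to 2257). Oligodendrocyte-like cells, which should lack the gene, held 6.71, 11.8 and 6.83 CPM in MPG-HD, G-HD and PBS.

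By cells, 80.0% of MPG-HD, 86.9% of G-HD and 80.1% of PBS microglia-like cells held at least 1 Il1b UMI, at median depths of 12298, 11663.5 and 11445 UMIs. In oligodendrocyte-like cells the shares were 7.07%, 8.15% and 6.37% at median depths of 11502, 9968 and 10782 UMIs, which sets the background. With every cell thinned to 1000 UMIs, Il1b was seen in 52.7%, 70.6% and 56.9% of microglia-like cells against 0.897%, 1.42% and 1.28% of oligodendrocyte-like cells. Thinned macrophage-like cells had 24.8%, 27.9% and 20.9%, and neutrophil-like cells, which are shallow (median depths of 1516, 2362 and 1648.5 UMIs), had 96.4%, 55.5% and 76.0%. In each of these 3 classes and libraries the share was far above that background.

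**Figure D2:**
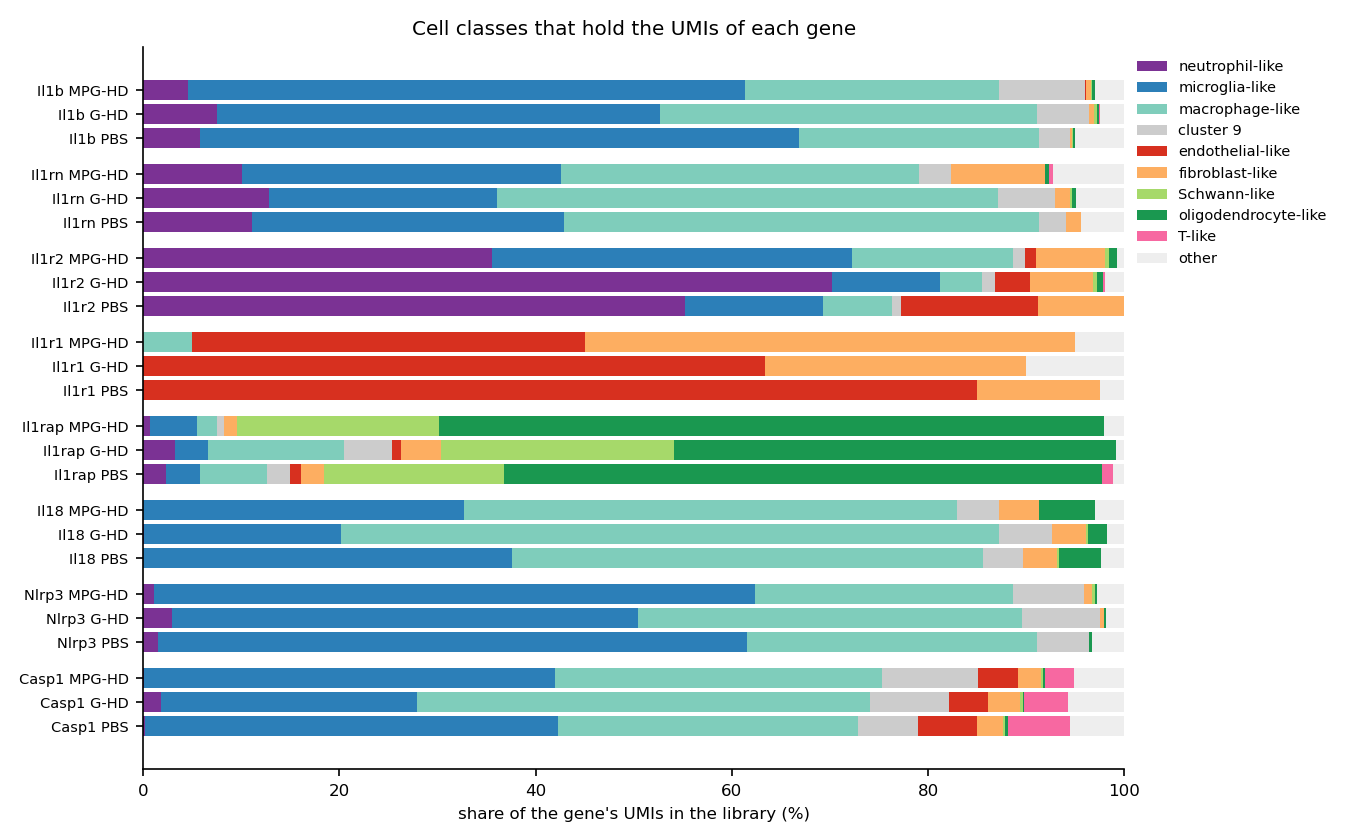
Share of each gene's UMIs (%) that came from each cell class in the MPG-HD, G-HD and PBS libraries, stacked to the library total; Il1a is left out for its low count. Microglia-like and macrophage-like cells hold most Il1b, Il18, Nlrp3 and Casp1 UMIs, and neutrophil-like cells hold 35.5%, 70.2% and 55.3% of Il1r2 UMIs in MPG-HD, G-HD and PBS.

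Despite their high level, neutrophil-like cells gave only a small part of the Il1b UMIs. They held 4.59% of the Il1b UMIs in MPG-HD, 7.52% in G-HD and 5.81% in PBS, while being 1.49%, 5.68% and 1.89% of cells and only 0.240%, 2.09% and 0.468% of all UMIs. Microglia-like cells held 56.7% in MPG-HD, 45.2% in G-HD and 61.1% in PBS, and macrophage-like cells 25.9%, 38.4% and 24.4%. The share of neutrophil-like cells is set by how cells are weighed: when every cell counts the same, it was 27.0%, 37.7% and 30.7%, and after thinning to 1000 UMIs it was 25.2%, 36.3% and 27.9%. With a filter of at least 500 genes per cell the G-HD share was 4.82%. Microglia-like cells were therefore the main source by UMIs in all 3 libraries, and neutrophil-like cells carried the most Il1b per unit of their own RNA.

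Il1b was higher in the G-HD than in the PBS library in both phagocyte classes. The G-HD over PBS ratio was 1.34 in microglia-like cells (1.29 to 1.38) and 1.37 in macrophage-like cells (1.30 to 1.44). MPG-HD over PBS was 0.855 in microglia-like cells (0.825 to 0.886) and 1.12 in macrophage-like cells (1.06 to 1.18), so that the classes lay on opposite sides of 1. MPG-HD over G-HD was 0.639 (0.619 to 0.660) in microglia-like and 0.817 (0.783 to 0.852) in macrophage-like cells. Over whole libraries Il1b stood at 524, 664 and 551 CPM in MPG-HD, G-HD and PBS.

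The microglia-like class held cells in different states, in unequal parts between libraries. At the finer cluster resolution of 1.2 a cluster led by the interferon-inducible gene Mx1 and by Slfn4 took 133 MPG-HD, 159 G-HD and 66 PBS cells of the class, or 34.1%, 53.4% and 24.7%. A cluster with Tmem119, Ccl3 and Ccl4 among its leading genes took 238, 132 and 188 cells. In the Mx1 cluster Il1b was at 1157, 2271 and 996 CPM in MPG-HD, G-HD and PBS, with ratios to PBS of 1.16 (1.07 to 1.26) for MPG-HD and 2.28 (2.11 to 2.46) for G-HD. In the Tmem119 cluster it was at 1538, 2136 and 1922 CPM, with ratios of 0.8004 (0.768 to 0.835) for MPG-HD and 1.11 (1.06 to 1.16) for G-HD. G-HD was thus above PBS in both clusters, more so in the Mx1 cluster, while MPG-HD was below PBS only in the Tmem119 cluster. This split was looked up after the class values were seen, and the difference between the clusters was not tested.

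Within macrophage-like cells the clusters differed in both level and ratio. Cluster 1, led by Mmp12 and Fabp4, had the least Il1b, with 182, 254 and 185 CPM in MPG-HD, G-HD and PBS. Cluster 3, led by Ms4a4e and Cd8a, had 718, 1233 and 538 CPM, and cluster 5, led by class II genes, Clec10a and Lyve1, had 914, 1598 and 980 CPM. G-HD was the highest library in all 3 clusters, with G-HD over PBS ratios of 1.37 (1.25 to 1.51) in cluster 1, 2.29 (2.13 to 2.47) in cluster 3 and 1.63 (1.49 to 1.79) in cluster 5. MPG-HD over PBS was 0.983 (0.880 to 1.10), 1.34 (1.23 to 1.45) and 0.933 (0.840 to 1.04) in the same clusters, so only cluster 3 was above PBS beyond counting error. The low-Il1b cluster 1 gave 205 of 460 macrophage-like cells in MPG-HD, 438 of 703 in G-HD and 157 of 342 in PBS. When each cluster weighed the same, the G-HD over PBS ratio of macrophage-like cells was 1.81 in place of 1.37.

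**Figure D3:**
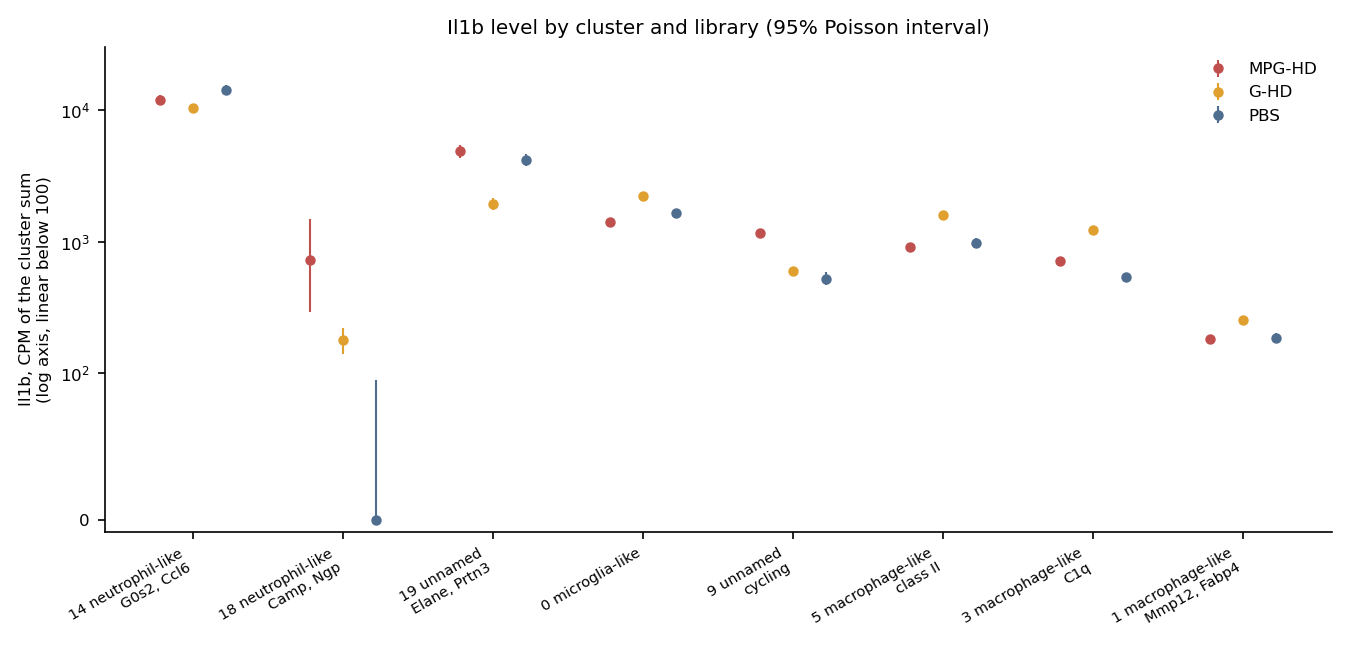
Il1b level (CPM, log axis) in the myeloid clusters of the MPG-HD, G-HD and PBS libraries, labelled by number and leading genes, with exact 95% Poisson intervals that cover counting error only. Among macrophage-like clusters, cluster 1 is lowest (182, 254 and 185 CPM) and cluster 5 highest (914, 1598 and 980 CPM).

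Neutrophil-like cells fell into 2 clusters with unlike Il1b. Cluster 14, led by G0s2 and Ccl6 with Retnlg and Il1r2 among its leading genes, held 11972, 10355 and 14249 CPM of Il1b in 29 MPG-HD, 73 G-HD and 21 PBS cells. Cluster 18, led by the granule genes Camp and Ngp, held 7 Il1b UMIs in 2 MPG-HD cells, 75 in 60 G-HD cells and 0 in 5 PBS cells. The class ratios, 1.47 (1.30 to 1.66) for MPG-HD over PBS and 0.349 (0.315 to 0.388) for G-HD over PBS, therefore compare unlike mixtures, since cluster 18 was 60 of 133 cells in G-HD. Within cluster 14 the ratios were 0.840 (0.744 to 0.949) and 0.727 (0.655 to 0.808), and the MPG-HD ratio lay on the other side of 1 from that of the class. For scale, 39.4% of the 620 features measured in the class were at least 1.5-fold higher in MPG-HD than in PBS, and 21.6% of 1878 were at least 1.5-fold lower in G-HD than in PBS.

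Other cells with Il1b were few or unnamed. Cluster 9, led by haemoglobin and cell cycle genes and close to macrophages by its markers, held 1172, 603 and 525 CPM in MPG-HD, G-HD and PBS, with a ratio of 2.23 (1.95 to 2.55) for MPG-HD over PBS, where 8.77% of 5565 features were at least 1.5-fold higher. With every cell weighing the same that ratio was 1.46. The summed level of the 11 neutrophil markers in cluster 9 was 669, 324 and 35.9 CPM in the same order. Of those markers Cxcr2, Lcn2 and Ltf were at 0 in all 3 libraries there, and the part of neutrophil RNA in the Il1b of cluster 9 was not tested. In microglia-like cells the same marker sum was 41.0, 88.0 and 45.3 CPM, with Cxcr2 and Ltf at 0 throughout. Cluster 19 was led by Fcnb and Plac8 and was closest to monocytes by its markers. It held 4872, 1924 and 4140 CPM of Il1b in 13, 25 and 20 cells of MPG-HD, G-HD and PBS. Elane, a granule gene also among its leading genes, had 248 UMIs in 12% of its G-HD cells and 0 in MPG-HD and PBS.

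Fibroblast-like cells had 64 Il1b UMIs in MPG-HD, 100 in G-HD and 12 in PBS, or 27.7, 36.4 and 6.38 CPM. The ratios to PBS were 4.34 (2.32 to 8.84) for MPG-HD and 5.70 (3.12 to 11.4) for G-HD, where 6.26% and 13.7% of features were at least 1.5-fold higher. In all, 5 of the 540 cells held 121 of the 176 UMIs, and none of these 5 was in the PBS library. The median level of 18 phagocyte markers was 4462 CPM in those 5 cells, 1295 CPM in the other 535 and 28660 CPM in macrophage-like cells; the part of phagocyte RNA in the result was not tested. Those 5 cells held 51 of the 64 MPG-HD UMIs (3 cells) and 70 of the 100 G-HD UMIs (2 cells). The remaining 165 MPG-HD, 234 G-HD and 136 PBS cells held 13, 30 and 12 UMIs, so the excess of MPG-HD over PBS lay in 3 cells. In Schwann-like cells, 31 of the 49 G-HD UMIs lay in 1 cell. Without the top cell of each library the G-HD over PBS ratio was 1.49 in place of 3.48.

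Il1a was rare and came from the same phagocytes, apart from neutrophil-like cells. Microglia-like cells held 28 UMIs in MPG-HD, 34 in G-HD and 26 in PBS, or 5.65, 9.72 and 8.06 CPM. Macrophage-like cells held 18, 21 and 8 UMIs, or 2.47, 1.72 and 1.47 CPM. Neutrophil-like cells held 0 UMIs, which allows a level of up to 4.49 CPM over the 3 libraries. Of the 6 library ratios in the 2 phagocyte classes, only MPG-HD over G-HD in microglia-like cells, at 0.582 (0.340 to 0.988), had an interval clear of 1.

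Il1rn, the receptor antagonist, was highest per unit of RNA in neutrophil-like cells, with 443, 111 and 378 CPM in MPG-HD, G-HD and PBS (25, 60 and 28 UMIs). Within their cluster 14 the levels were 514, 402 and 731 CPM, with a G-HD over PBS ratio of 0.550 (0.334 to 0.926). Microglia-like cells held 16.3, 31.1 and 24.8 CPM (81, 109 and 80 UMIs) and macrophage-like cells 12.5, 19.6 and 22.4 CPM (91, 239 and 122 UMIs). MPG-HD was thus the lowest library in both phagocyte classes. Shares of cells with an Il1rn UMI were 12.8%, 20.8% and 17.6% of microglia-like cells, against 0.208%, 0.858% and 0% of oligodendrocyte-like cells, where 0 of 267 PBS cells allows up to 1.12%.

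In macrophage-like cells Il1rn in MPG-HD was 0.557 times the PBS level (0.420 to 0.736), and G-HD over PBS was 0.872 (0.698 to 1.09). MPG-HD over G-HD was 0.639 (0.496 to 0.816). The ratio farthest from 1 was in cluster 1, where Il1rn was at 9.14, 16.4 and 28.7 CPM in MPG-HD, G-HD and PBS, a ratio of 0.319 (0.212 to 0.473) for MPG-HD over PBS and of 0.573 (0.436 to 0.756) for G-HD over PBS. In cluster 3 the same ratios were 1.34 (0.619 to 3.03) and 2.11 (1.03 to 4.59), and in cluster 5 they were 0.881 (0.507 to 1.55) and 1.31 (0.809 to 2.20). Whether the clusters differ in their ratios was not tested. In microglia-like cells MPG-HD over PBS was 0.659 (0.478 to 0.909), G-HD over PBS 1.26 (0.933 to 1.70) and MPG-HD over G-HD 0.525 (0.389 to 0.706). After thinning to 1000 UMIs per cell Il1rn was left in 5, 9 and 3 microglia-like cells of MPG-HD, G-HD and PBS, and the MPG-HD over PBS ratio was 1.14, so it did not keep its direction there. The thinned ratios in macrophage-like cells, 0.316 and 0.627, lay lower than the unthinned ones and rest on 3, 7 and 6 cells.

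The number of Il1rn UMIs for each Il1b UMI was compared between cells and libraries, since both genes are read in the same cells. In macrophage-like cells it was 0.0285 in MPG-HD (0.0229 to 0.0351), 0.0364 in G-HD (0.0319 to 0.0415) and 0.0573 in PBS (0.0473 to 0.0687). The PBS value lay above both gels with no overlap of intervals. In cluster 1 there were 38, 150 and 86 Il1rn UMIs beside 757, 2323 and 556 Il1b UMIs in MPG-HD, G-HD and PBS. In cluster 3 there were 19, 26 and 12 beside 1559, 2330 and 990, and in cluster 5 34, 63 and 24 beside 878, 1907 and 585. The PBS excess thus lay mainly in cluster 1, and the difference between clusters was not tested. In microglia-like cells the number of Il1rn UMIs per Il1b UMI was 0.0116, 0.0141 and 0.0150, and in neutrophil-like cells 0.0442, 0.0467 and 0.0552, with overlapping intervals within each class. Microglia-like cells thus held the fewest antagonist UMIs per Il1b UMI of these 3 classes in every library.

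Il1rn and Il1b were also set side by side cell by cell. At 1000 UMIs per cell, 35.0% of 117 neutrophil-like cells with Il1b also had Il1rn, against 3.13% of 64 cells without Il1b. That contrast includes the difference between clusters 14 and 18, and it was not taken within cluster 14. In microglia-like cells the shares were 1.59% of 566 and 2.07% of 386, and in macrophage-like cells 1.32% of 379 and 0.987% of 1115. The phagocyte shares differed by less than their counting intervals.

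Fibroblast-like cells added 24 Il1rn UMIs in MPG-HD, 7 in G-HD and 4 in PBS, of which 23, 7 and 3 were in cluster 8. The MPG-HD over PBS ratio was 4.89 (1.68 to 19.4) and MPG-HD over G-HD was 4.08, where 7.16% of features were at least 1.5-fold higher. Only 7 MPG-HD, 5 G-HD and 3 PBS cells held these UMIs, and the top MPG-HD cell had 8 of the 24. Endothelial-like cells held no Il1rn UMI, which allows a level of up to 2.45 CPM.

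Il1r1, the receptor that carries the signal, was counted in endothelial-like cells, which held 61 of its 90 UMIs. Their levels were 22.5 CPM in MPG-HD (8 UMIs), 45.6 CPM in G-HD (19 UMIs) and 75.5 CPM in PBS (34 UMIs), so that PBS was highest and MPG-HD lowest. By cells, 21.9%, 22% and 29.7% had a UMI, at median depths of 10483, 8058 and 7687 UMIs, against 0% of oligodendrocyte-like cells, where 0 of 981 allows up to 0.306%. With cells thinned to 1000 UMIs the gene was left in 1, 1 and 2 endothelial-like cells, too few to compare.

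The MPG-HD over PBS ratio of Il1r1 in endothelial-like cells was 0.298 (0.119 to 0.656), and without the top cell of each library it was 0.277. For scale, 13.2% of 4153 features in these cells were at least 1.5-fold lower in MPG-HD than in PBS. The G-HD over PBS ratio was 0.605 (0.326 to 1.09) and MPG-HD over G-HD was 0.493 (0.187 to 1.18), neither clear of 1, where 13.9% and 11.4% of features were at least 1.5-fold lower. The 7 endothelial markers summed to 7954, 6408 and 6611 CPM in MPG-HD, G-HD and PBS. The cells numbered 32, 41 and 37, and the ratio rests on 8 and 34 UMIs.

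Fibroblast-like cells gave 23 more Il1r1 UMIs, at 4.33, 2.91 and 2.66 CPM in MPG-HD, G-HD and PBS. Mural-like cells, with 285028 UMIs in all, held 3 Il1r1 UMIs, a higher level than in fibroblast-like cells but too few UMIs to rank. Ependymal-like cells and the unnamed cluster 19 held 1 each. Macrophage-like cells held 1 UMI, in MPG-HD. Microglia-like, neutrophil-like, oligodendrocyte-like, Schwann-like and T-like cells held 0 UMIs. For microglia-like cells, with 11680920 UMIs in all, this allows up to 0.257 CPM, and for neutrophil-like cells, which are shallow, only up to 4.49 CPM. The 2 named classes with the most Il1b, neutrophil-like and microglia-like cells, thus had no Il1r1 UMI at this depth. The neutrophil-like bound lies above the fibroblast-like levels, so a level like theirs could be missed there. Cluster 19, also high in Il1b, held 1 UMI.

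Il1rap, the accessory chain that IL1R1 needs, had a different distribution. Oligodendrocyte-like cells held 207 and Schwann-like cells 75 of its 355 UMIs. The level was 29.2, 28.4 and 31.5 CPM in Schwann-like cells and 17.0, 21.7 and 17.2 CPM in oligodendrocyte-like cells of MPG-HD, G-HD and PBS. The 3 libraries did not differ beyond counting error, with MPG-HD over PBS ratios of 0.928 (0.490 to 1.82) and 0.989 (0.702 to 1.41) and G-HD over PBS ratios of 0.901 (0.474 to 1.78) and 1.26 (0.848 to 1.87). Endothelial-like cells, where Il1r1 was counted, held 0, 1 and 1 Il1rap UMIs, and oligodendrocyte-like and Schwann-like cells held no Il1r1 UMI. Of the phagocytes, macrophage-like cells held 3, 17 and 6 UMIs and microglia-like cells 7, 4 and 3.

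Il1r2, the decoy receptor, was first of all a neutrophil-like transcript. Its level there was 1614, 665 and 850 CPM in MPG-HD, G-HD and PBS (91, 358 and 63 UMIs), found in 80.6%, 70.7% and 73.1% of cells. Within cluster 14 the libraries did not differ beyond counting error, at 1756, 1985 and 1771 CPM, with ratios of 0.992 (0.706 to 1.40) for MPG-HD over PBS and 1.12 (0.846 to 1.51) for G-HD over PBS. Cluster 18 held 9, 126 and 0 UMIs. At 1000 UMIs per cell, 74.4% of neutrophil-like cells with Il1b also had Il1r2, against 20.3% of those without, which again includes the difference between clusters 14 and 18.

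In microglia-like cells Il1r2 was low but stood higher after both gels, with 19 CPM in MPG-HD (94 UMIs), 16.0 CPM in G-HD (56 UMIs) and 4.96 CPM in PBS (16 UMIs). MPG-HD over PBS was 3.82 (2.24 to 6.96) and G-HD over PBS was 3.23 (1.82 to 6.03), while MPG-HD over G-HD was 1.19 (0.843 to 1.68). It was seen in 10.0%, 8.72% and 4.12% of cells, against 0.416%, 1.29% and 0% of oligodendrocyte-like cells. Without the top cell of each library the ratios to PBS were 4.38 and 3.77. After thinning the MPG-HD over PBS ratio was 7.55, on 9 cells against 1. The neutrophil marker sum of these cells, 41.0, 88.0 and 45.3 CPM in MPG-HD, G-HD and PBS, was highest in G-HD, and the part of neutrophil RNA in the Il1r2 values was not tested.

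Macrophage-like cells held 42, 22 and 8 Il1r2 UMIs, or 5.76, 1.80 and 1.47 CPM in MPG-HD, G-HD and PBS. MPG-HD over PBS was 3.92 (1.82 to 9.66) and MPG-HD over G-HD was 3.20 (1.87 to 5.63). Both moved with the weight given to each cell: with every cell weighing the same MPG-HD over PBS was 1.85, and at 1000 UMIs per cell it was 1.11, on 3 cells against 2. Cluster 5 had the highest levels, with 27.1, 12.6 and 10.0 CPM.

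Endothelial-like cells also carried the decoy, with 8.43, 43.2 and 35.5 CPM in MPG-HD, G-HD and PBS (3, 18 and 16 UMIs). MPG-HD over PBS was 0.237 (0.0443 to 0.830) and MPG-HD over G-HD was 0.195 (0.0368 to 0.668). The ratio to PBS rests on fewer than the 20 UMIs required here to count a gene, and both rest on 3 UMIs in MPG-HD. Over the 3 libraries there were 0.607 Il1r2 UMIs per Il1r1 UMI in endothelial-like cells (0.392 to 0.927), against 2.65 in fibroblast-like cells (1.62 to 4.49), so the fibroblast-like ratio was the higher. Fibroblast-like cells held 18, 33 and 10 Il1r2 UMIs, with a G-HD over PBS ratio of 2.26 (1.09 to 5.14).

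Over whole libraries the signalling receptor was lower and the decoy receptor higher after both gels. Il1r1 had 20, 30 and 40 UMIs in MPG-HD, G-HD and PBS, with ratios to PBS of 0.336 (0.186 to 0.589) and 0.461 (0.278 to 0.760). Il1r2 had 256, 510 and 114 UMIs, with ratios to PBS of 1.51 (1.21 to 1.90) and 2.75 (2.24 to 3.40). These library values carry the cell mixture. Endothelial-like cells, which held most Il1r1 UMIs, were 1.53%, 1.75% and 2.69% of cells in MPG-HD, G-HD and PBS, and neutrophil-like cells were 1.49%, 5.68% and 1.89%.

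Il18, which is cut by the same protease as Il1b, was spread evenly over phagocytes and absent from neutrophil-like cells but for 2 UMIs in G-HD. Microglia-like cells held 117, 130 and 145 CPM in MPG-HD, G-HD and PBS (580, 455 and 468 UMIs), and macrophage-like cells 123, 125 and 110 CPM (893, 1523 and 598 UMIs). The macrophage-like clusters ranged from 93.5 to 135 CPM over the libraries, a far narrower span than for Il1b. MPG-HD over PBS was 0.807 (0.713 to 0.913) in microglia-like cells and 1.11 (1.00 to 1.24) in macrophage-like cells, and G-HD over PBS was 0.896 (0.786 to 1.02) and 1.13 (1.03 to 1.25). At 1000 UMIs per cell the macrophage-like ratios were 0.970 and 1.01. Fibroblast-like cells had 31.2, 28.4 and 23.4 CPM and oligodendrocyte-like cells 17.4, 17.4 and 17.2 CPM, and among the oligodendrocyte-like clusters the highest was cluster 4 with 36.1, 34.3 and 31.8 CPM.

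Nlrp3, the sensor of the inflammasome, was counted mainly in microglia-like cells. In neutrophil-like cells, on few UMIs, it had 160, 50.2 and 121 CPM in MPG-HD, G-HD and PBS. These class levels also take in the cluster led by Camp and Ngp, a larger part of the class in G-HD. Within cluster 14 alone Nlrp3 was at 171, 197 and 253 CPM in MPG-HD, G-HD and PBS (8, 23 and 9 UMIs). Each of these values lay above the microglia-like level of the same library. The G-HD over PBS ratio in cluster 14 was 0.778 (0.347 to 1.91). The microglia-like levels were 98.5, 126 and 108 CPM in MPG-HD, G-HD and PBS (488, 441 and 349 UMIs), and the macrophage-like ones 28.8, 29.7 and 31.6 CPM. G-HD over PBS in microglia-like cells was 1.16 (1.01 to 1.34) and MPG-HD over G-HD was 0.781 (0.686 to 0.891), the same direction as Il1b in those cells. In macrophage-like cells all 3 ratios lay within 0.911 and 0.970 with intervals that held 1, but single clusters departed from that. Cluster 1 gave 0.605 (0.377 to 0.964) for MPG-HD over PBS and 0.463 (0.314 to 0.666) for MPG-HD over G-HD, and cluster 3 gave 1.48 (1.13 to 1.96) for G-HD over PBS and 0.744 (0.576 to 0.959) for MPG-HD over G-HD. At 1000 UMIs per cell the MPG-HD over PBS ratios of Nlrp3 were 1.46 in microglia-like and 1.36 in macrophage-like cells, against 0.910 and 0.911 unthinned. Among thinned cells with Il1b, 13.1% of microglia-like and 7.92% of macrophage-like cells also had Nlrp3, against 8.29% and 2.51% of those without Il1b. The macrophage-like contrast includes the difference between cluster 1, which had the least of both genes, and clusters 3 and 5.

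Among the named classes Casp1 had its highest levels outside the phagocytes. The unnamed cluster 19, closest to monocytes by its markers, held 51 Casp1 UMIs among 333833 UMIs in all. T-like cells held 102 among 784089, a lower level. The unnamed, shallow cluster 6, nearest to macrophages by its markers, had 87.1 CPM over all libraries, beside 85.1 CPM in endothelial-like cells. T-like cells held 123, 120 and 155 CPM in MPG-HD, G-HD and PBS (24, 46 and 32 UMIs) and endothelial-like cells 92.7, 96.1 and 68.8 CPM (33, 40 and 31 UMIs), with no ratio to PBS clear of 1. Microglia-like cells held 69.4, 76.0 and 66.3 CPM and macrophage-like cells 37.5, 38.5 and 28.5 CPM. In macrophage-like cells the ratios to PBS were 1.31 (1.08 to 1.61) for MPG-HD and 1.35 (1.13 to 1.63) for G-HD. By cluster they were 1.197 (0.894 to 1.61) and 1.34 (1.04 to 1.75) in cluster 1, 2.10 (1.41 to 3.18) and 2.41 (1.62 to 3.65) in cluster 3, and 0.839 (0.556 to 1.27) and 0.826 (0.558 to 1.24) in cluster 5. With thinned cells they were 1.93 and 1.95, and the microglia-like ratios were 1.69 and 1.87 in place of 1.05 and 1.15. Neutrophil-like cells held 1, 19 and 1 Casp1 UMIs.

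**Figure D4:**
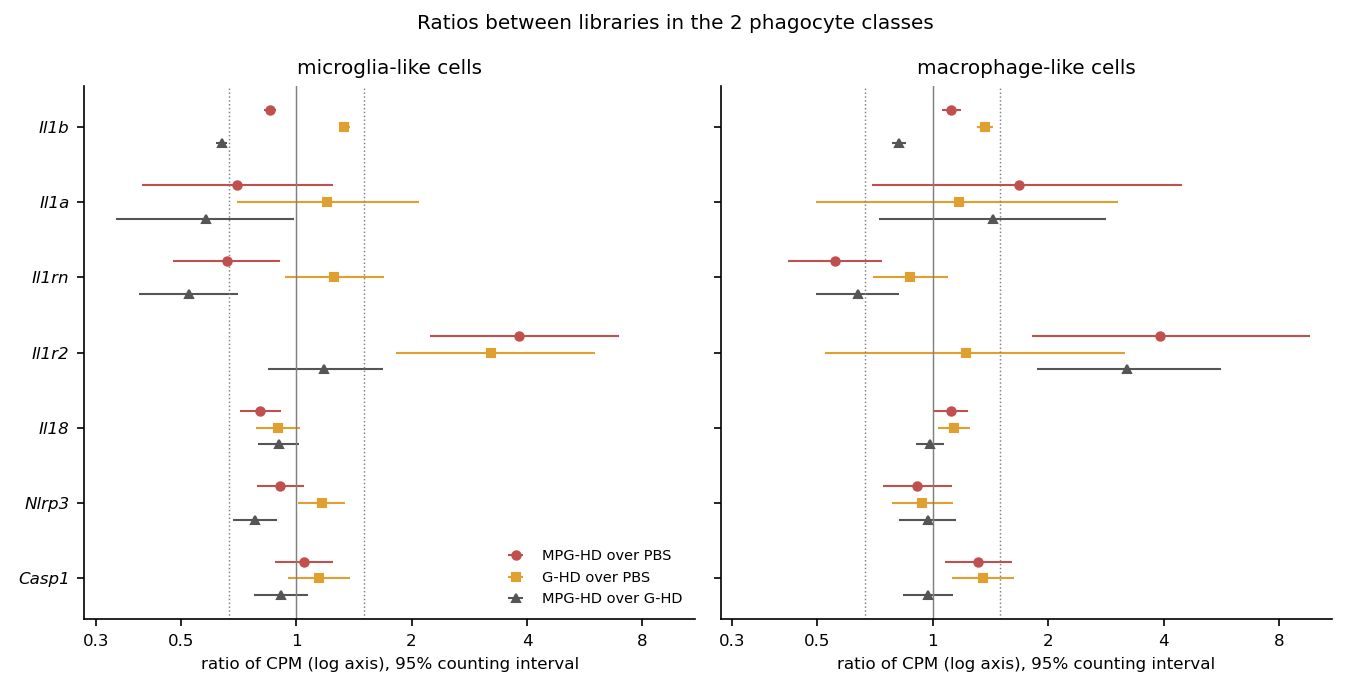
Ratio of levels between libraries (log axis) for 7 of the genes in microglia-like and macrophage-like cells, as MPG-HD over PBS, G-HD over PBS and MPG-HD over G-HD, with exact 95% counting intervals; the solid line marks 1 and the dotted lines 1.5-fold either way. Il1r2 lies above 1.5-fold for MPG-HD over PBS in both classes (3.82 and 3.92), and Il1b stays within 1.5-fold of PBS in both.

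A difference of at least 1.5-fold on at least 20 UMIs was used to count genes, with no test behind it. In microglia-like cells 7 of the 9 genes were measurable. For MPG-HD over PBS 1 was higher (Il1r2) and 1 lower (Il1rn), where 5.64% of 8241 features were higher and 7.29% lower. For G-HD over PBS 1 was higher (Il1r2) and 0 lower, against 7.78% of features higher and 6.86% lower, and for MPG-HD over G-HD 3 were lower (Il1b, Il1a and Il1rn), against 7.54% lower. In macrophage-like cells 7 genes were measurable for MPG-HD over PBS, of which 2 were higher (Il1a and Il1r2) and 1 lower (Il1rn), against 4.85% higher and 7.68% lower. For G-HD over PBS 0 of 8 were higher or lower, against 7.52% of features higher and 8.1% lower, and for MPG-HD over G-HD 1 was higher (Il1r2) and 2 lower (Il1rn and Il1rap), against 4.94% and 7.17%. The median log2 ratio of the measured genes in microglia-like cells was -0.23 for MPG-HD over PBS and 0.27 for G-HD over PBS, and in macrophage-like cells 0.16 and 0.26. The same medians over all features were -0.02, 0.01, -0.03 and -0.00. With 7 or 8 genes these counts describe the members and do not set them apart.

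Of 14 other IL-1 family ligands and receptors, 2 were measurable in microglia-like and 3 in macrophage-like cells. Il33, an alarmin of the family, had 69.2, 49.2 and 37.8 CPM in microglia-like cells of MPG-HD, G-HD and PBS, with a MPG-HD over PBS ratio of 1.83 (1.48 to 2.27), and 17.2, 13.9 and 11.4 CPM in macrophage-like cells, with a ratio of 1.5 (1.10 to 2.07). Il18bp, the soluble binding protein that neutralises IL-18, had 77.8, 160 and 125 CPM in macrophage-like cells. Its ratios there were 0.624 (0.557 to 0.699) for MPG-HD over PBS, 1.28 (1.17 to 1.40) for G-HD over PBS and 0.488 (0.443 to 0.536) for MPG-HD over G-HD. Like Il1rn, it was lowest in the MPG-HD macrophage-like cells. Il36b had 2.88, 4.09 and 2.94 CPM there, with no ratio clear of 1 among those named by the rule.

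Of 18 inflammasome sensors and effectors other than Nlrp3 and Casp1, 16 were found in the files and 11 were measurable in either phagocyte class. In microglia-like cells 0 were higher and 3 lower for MPG-HD over PBS, where 5.64% of all features were higher and 7.29% lower, with a median log2 ratio of -0.07 against -0.02 over all features. For G-HD over PBS 0 were higher and 0 lower, against 7.78% and 6.86% of features, with a median of 0.04 against 0.01. Casp4, the caspase that senses intracellular lipopolysaccharide, was among the lower ones, with 15.1, 19.7 and 27.9 CPM in MPG-HD, G-HD and PBS and a MPG-HD over PBS ratio of 0.542 (0.394 to 0.745), whereas in macrophage-like cells the same ratio was 1.59 (1.02 to 2.52). Panx1, a membrane channel, was at 0.555 (0.304 to 1.00) in microglia-like cells. In macrophage-like cells 1 was higher and 2 lower for MPG-HD over PBS, against 4.85% and 7.68% of features. The G-HD over PBS counts were 0 higher and 2 lower, against 7.52% and 8.1%. The medians were -0.22 and -0.05, against -0.03 and -0.00 over all features. Pycard, the adaptor that joins sensor to caspase-1, had a ratio of 0.856 (0.796 to 0.921) for MPG-HD over PBS in macrophage-like cells, and Aim2, a sensor of DNA, had 0.527 (0.306 to 0.915) for G-HD over PBS.

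Of 17 genes of signalling next to the receptor, 13 were measurable in microglia-like and 14 in macrophage-like cells. For MPG-HD over PBS 0 were higher and 1 lower in each class, near the share of all features lower (7.29% in microglia-like and 7.68% in macrophage-like cells), with medians of -0.15 and -0.09 against -0.02 and -0.03 over all features. For G-HD over PBS 1 was higher and 1 lower in microglia-like cells, where 7.78% and 6.86% of features were, and 0 were higher or lower in macrophage-like cells, against 7.52% and 8.1%. The medians were -0.12 and 0.05, against 0.01 and -0.00. Irak4, a kinase at the receptor, had macrophage-like ratios of 1.45 (1.06 to 1.99) for MPG-HD over PBS and 1.42 (1.06 to 1.92) for G-HD over PBS. Rela, a subunit of NF-κB, had 1.46 (1.15 to 1.88) and Nfkb1, its partner, 0.719 (0.577 to 0.900) for G-HD over PBS. The kinase gene Chuk was at 0.546 (0.329 to 0.896) for MPG-HD over PBS.

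Of 24 genes that IL-1 and NF-κB can induce, 14 were measurable in each phagocyte class against PBS. In microglia-like cells 1 was higher and 4 were lower for MPG-HD over PBS, against 5.64% and 7.29% of features, with a median of -0.39 against -0.02 over all features. Between G-HD and PBS 2 were higher and 1 lower, against 7.78% and 6.86%, with a median of 0.00. Ccl2, which draws monocytes, had 260, 269 and 497 CPM in microglia-like cells of MPG-HD, G-HD and PBS, and its ratios to PBS were 0.523 (0.485 to 0.563) and 0.543 (0.500 to 0.588). Ccl7, a related chemokine, had 48.2, 112 and 86.2 CPM there, with ratios to PBS of 0.560 (0.469 to 0.668) and 1.30 (1.11 to 1.52). Ptgs2, the inducible cyclooxygenase, had 13.5, 17.7 and 6.82 CPM, with ratios of 1.98 (1.21 to 3.37) and 2.60 (1.57 to 4.44). The microglia-like genes of this list thus did not go one way: Ccl2 was lower and Ptgs2 higher after both gels.

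In macrophage-like cells 3 inducible genes were higher and 0 lower for MPG-HD over PBS, against 4.85% and 7.68% of features, with a median of -0.04. For G-HD over PBS 1 was higher and 1 lower, against 7.52% and 8.1%, with a median of 0.07. Ccl2 had 274, 221 and 207 CPM there, with a MPG-HD over PBS ratio of 1.32 (1.23 to 1.42). Icam1, an adhesion molecule, had MPG-HD over PBS and G-HD over PBS ratios of 0.684 (0.592 to 0.791) and 0.700 (0.617 to 0.796). C3, a complement component, was at 2.82 (1.68 to 4.83) for MPG-HD over G-HD. Vcam1, an adhesion molecule, was at 2.18 (1.09 to 4.83) for G-HD over PBS.

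The likeness of patterns was taken over 34 sums of a class and a library, which share their libraries, as Pearson's r of log2(CPM + 10) among 10189 features with at least 100 UMIs. The genes most like Il1b were Fcgr1a (0.962), Tlr2 (0.961), Cxcl2 (0.956), Themis2 (0.954) and Nlrp3 (0.947). For Il1rn they were Csf3r (0.953), Scimp (0.952), Igsf6 (0.95), Clec4a2 (0.947) and Clec4d (0.933). For Il1r1 they were Ecscr (0.963), Ushbp1 (0.959), Kdr (0.958), Aplnr (0.957) and Tmem252 (0.949). Il1r2 was most like Ifit1bl (0.946), Padi4 (0.930), Pglyrp1 (0.923), Nos2 (0.923) and Stfa2 (0.921). Il18 was most like Npc2 (0.973), Ctsb (0.933), Naglu (0.932), Ctsa (0.926) and Slamf9 (0.923). Among the members, Il1b had r of 0.868 with Il1rn, 0.534 with Il1r2, 0.477 with Il18 and -0.39 with Il1r1.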

How the data were processed

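Single cells of 3 libraries (MPG-HD, G-HD and PBS, 1 each) were analysed from the deposited matrices, which hold counts of UMIs per gene and cell barcode without normalization, per the file headers. Cell Ranger 3.0.2 is named in the submitters' processing notes, together with builds of the mouse (GRCm38, mm10). The header of each matrix has version 3.1.0 instead, and feature identifiers are those of rat Ensembl genes. Which rat build was used is not given in the sources used here. The libraries total 23988263, 26289759 and 16081082 UMIs for MPG-HD, G-HD and PBS.

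Barcodes passed with 200 genes or more and no more than 20% of UMIs from mitochondrial genes (5815). A doublet caller marked 12 of them (0.206%), too few for it to have worked, and these were removed. Log-transformed counts, each cell set to a total of 10000, gave 2000 variable genes, without the members and listed genes, then 30 components, a graph of 20 neighbours and Leiden clusters at resolution 0.8. Clusters were named from 20 marker sets when at least 3 markers were found in at least 20% of cells, unless cell cycle or other classes' genes led them or they were shallow with no marker among the 10 leading genes. Names can therefore differ from the study's own. Analyses ran in Python 3.11.15 with NumPy 2.4.6, SciPy 1.17.1, pandas 2.3.3, Scanpy 1.11.5, scikit-learn 1.9.0, python-igraph 0.11.9, leidenalg 0.10.2 and matplotlib 3.10.9.

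Levels are UMIs of a gene scaled to 1000000 UMIs of the summed cells (CPM). Ratios carry exact conditional 95% intervals, shares of cells exact Clopper-Pearson intervals, and a sum of 0 is bounded at 3 UMIs. All cover counting error only. Cells are not replicates and each condition has 1 library, so no test was made. The computation of levels, ratios and intervals was checked on simulated data.

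The 9 members, the gene lists and the tests were chosen with earlier results of these data known. All members are named. From each list and contrast, the rule names genes with the highest and lowest ratios in microglia-like and macrophage-like cells, on at least 50 UMIs in both sums, and the text gives part of them; for likeness it names the first 5. Nlrp1b and Naip6 were not analysed here. Alternatives covered the cell filter, the weight of cells and clusters, single cells, depth, variable genes, cluster resolution and doublets. Leaving out the top cell in classes other than phagocytes and the finer split of microglia-like cells were added after seeing the data.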

Additional observations from a re-analysis of the deposited data

Results flagged for a closer look

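Il1b and Il18 lay on opposite sides of PBS in the 2 phagocyte classes of the MPG-HD library. For Il1b the MPG-HD over PBS ratio was 1.12 (1.06 to 1.18) in macrophage-like cells and 0.855 (0.825 to 0.886) in microglia-like cells. For Il18 it was 1.11 (1.00 to 1.24) in macrophage-like cells and 0.807 (0.713 to 0.913) in microglia-like cells. Within the microglia-like cells the Mx1 cluster found at resolution 1.2 lay above PBS as well, at 1.16 for Il1b (1.07 to 1.26). The difference between the classes was not tested, since each condition has 1 library, and at 1000 UMIs per cell the macrophage-like ratios were 1.02 for Il1b and 0.970 for Il18.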

How the results depend on the processing

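Every Il1b ratio to PBS in microglia-like and macrophage-like cells, taken as classes, kept its side of 1 under all alternatives tried, but the Mx1 cluster split off at resolution 1.2 had 1.16 for MPG-HD over PBS. In macrophage-like cells G-HD over PBS, 1.37 as reported, was 1.44 with the strict cell filter, 1.48 with every cell weighing the same, 1.48 at 1000 UMIs per cell, 1.81 with every cluster weighing the same and 1.25 without the cells of highest doublet score. MPG-HD over PBS there, 1.12 as reported, was 1.21 with no cell filter, 1.21 with the strict filter, 1.02 at 1000 UMIs and 1.2 with the listed genes kept for clustering. In microglia-like cells G-HD over PBS, 1.34 as reported, was 1.16 with no filter, 1.44 with equal cells, 1.29 with the listed genes kept and 1.11 at resolution 1.2. MPG-HD over PBS there, 0.855 as reported, was 0.819 with no filter, 0.952 with equal cells, 0.896 at 1000 UMIs and 0.8004 at resolution 1.2. Both with no filter and at resolution 1.2 a cluster led by Mx1 and Slfn4 was left unnamed and so out of the microglia-like class. With no filter that class held 595 cells in place of 955. Il1r2 in microglia-like cells, 3.82 for MPG-HD over PBS, was 7.55 at 1000 UMIs. The share of Il1b UMIs in neutrophil-like cells of MPG-HD, G-HD and PBS (4.59%, 7.52% and 5.81%) was 3.82%, 4.82% and 4.12% with the strict filter, 27.0%, 37.7% and 30.7% with equal cells and 25.2%, 36.3% and 27.9% at 1000 UMIs, and the G-HD share was 8.12% without the cells of highest doublet score. Weighing clusters the same gives no value for these shares. Il1rn in microglia-like cells, 0.659 for MPG-HD over PBS, was 1.14 at 1000 UMIs. The cause of these shifts was not tested. Of the 77 alternative values of these ratios and shares, 28 left the counting interval of the reported one. Over the 39 other ratios, 364 of 386 alternative values kept their side of 1 and 22 did not, of which 1 (Il1rn) had passed 1.5-fold as reported. Of the 386, 353 stayed within the counting interval. No paired analysis was possible because each condition has 1 library. Depth limits Il1a (150 UMIs) and Il1r1 (90 UMIs) most, and thinning leaves single UMIs of Il1rn, Il1r2 and Nlrp3 in few cells.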

Other observations

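Genes of the pathway outside the phagocytes were looked up after their values were seen. Of 20 inducible genes with at least 20 UMIs, 5 (25%) were highest in endothelial-like cells among 9 named classes, against 10.9% of 13218 features. These were Ptgs2, Icam1, Vcam1, Il6 and Csf3, and the others were highest elsewhere. Ptgs2 was at 354, 274 and 324 CPM in endothelial-like cells of MPG-HD, G-HD and PBS (126, 114 and 146 UMIs). Whether it lay in the same single cells as Il1r1 was not tested. The class also held 115, 192 and 133 CPM of Icam1, and 45.0, 108 and 115 CPM of Vcam1, both adhesion molecules that inflamed endothelium displays. Il6, a cytokine, had 22, 16 and 25 UMIs there, of which 17, 8 and 19 lay in 1 cell of each library, and Csf3, which drives neutrophil output, had 6, 29 and 12 UMIs, of which 6, 27 and 6 lay in 1 cell. Sigirr, a receptor that damps IL-1 signalling, was at 87.1, 108 and 93.2 CPM, and endothelial-like cells held 118 of its 191 UMIs.

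Receivers of the sister cytokines sat elsewhere. T-like cells held 43 of the 56 UMIs of Il18r1, the receptor of IL-18, with 71.6, 44.5 and 58.2 CPM in MPG-HD, G-HD and PBS. Il18bp was counted mainly in macrophage-like cells, which held 3195 of its 4332 UMIs, with 580 in fibroblast-like cells. Il33 was highest in Schwann-like cells, at 215, 211 and 150 CPM, where 1 cell of each library held 75, 38 and 22 UMIs. Its receptor Il1rl1 was counted in fibroblast-like cells for 30 of its 55 UMIs, but its level per unit of RNA was highest in T-like cells among 9 named classes.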
